A study of Drosophila melanogaster with 18 samples.

Results

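Line sj461 is a Drosophila melanogaster line from a forward screen for genes that shape embryonic muscle, and its deposited list of candidate lesions held 67 distinct variants in 53 genes, out of 173 distinct variants in the lists of the 3 lines analysed here. All variants of the sj461 list were taken, with repeated entries merged: 75 entries gave 67 distinct combinations of position and alleles, and 5 variants had been entered more than once. The list was called from polyadenylated RNA of whole embryos at stage 12, from eggs laid over 3 h at 25 °C and aged for 7 h. Homozygous embryos were picked by hand against a fluorescent green balancer chromosome, and the labels give neither the mutagen nor the parental stock. The line has 3 samples with 2 replicate numbers, replicate 1 being given as a pair of samples, and the design text calls the replicates technical. The lists of sj266 (38 variants) and sj440 (68 variants), made from embryos collected in the same way, served for comparison. The authors gave 1 list per line, so no value below has a replicate error, and the read depth behind each call is unknown. No muscle phenotype and no genetic map position of sj461 was used here, so the variants are described as candidates only.

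The variant with the highest quality score was a missense change in ptc, which encodes Patched, the receptor of the secreted signal Hedgehog. In the absence of Hedgehog, Patched keeps the membrane protein Smoothened inactive; binding of Hedgehog lifts this block, and the transcription factor Cubitus interruptus then activates target genes. In the fly embryo this pathway patterns each segment, including the epidermis in which tendon cells form and the mesoderm from which body wall muscles form. Body wall muscles grow out towards tendon cells under the control of guidance receptors, adhesion proteins and the cytoskeleton, and several genes of these kinds are on the list as well. Each variant carries a quality score from the authors' variant caller, for which a higher value means a better supported call. Whether single-base changes and insertions are scored on 1 scale is unknown.

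The in-frame insertions and the deletion on arm 2L show what the length changes of this list looked like. The deposited codons are printed on the coding strand from 5′ to 3′, first as in the reference and then as in sj461, with the replaced or inserted stretch in capitals (in cana the deleted bases are in capitals in the reference).
bib reference, 2L, position 9994579: caACAg
bib in sj461: caACAACAGCAGCAACAg
Nak reference, 2L, position 18959094, minus strand: tATAAT
Nak in sj461: tATAATAAT
cana reference, 2L, position 11274849: aGATct
cana in sj461: act
In bib the insertion of 12 bases lengthened a run of glutamines by 4 residues at residue 671. In Nak 3 further bases added 1 asparagine at residue 1223. In cana the loss of 3 bases replaced an arginine and a serine by a threonine at residue 1204. All 9 insertions and deletions of the list, with equivalent entries counted separately, kept the reading frame.

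In ptc the change was C313S, an exchange of cysteine for serine at residue 313, with a quality of 228 (BDGP6, 2R, position 8661096). The next score of the list was 164, so ptc stood 64 points above the rest of this list, while the following 4 variants lay between 153 and 164. A score of 228 was also the highest in sj440, where 5 variants had it, and the highest of sj266 was 220. Whether 228 is an upper limit of the score is unknown, so the margin of 64 points is not read as a distance in support. The change is an A:T to T:A transversion and lies 73.5% of the way from the 5′ end of the gene's interval of 15575 bp. That share refers to the genomic interval, introns included, and does not give the place of residue 313 along the protein. Its neighbours on the arm were a serine insertion in Np, 334593 bp away, and a missense change in CG1850, 1401902 bp away on the other side. No second variant was listed in ptc. Of 23 genes of the Hedgehog pathway, 8 lie on chromosome 2 (ptc, smo, cos, Pka-C1, ihog, ttv, botv and sotv), and ptc was the 1 that sj461 listed. Over the whole chromosome the list held 53 of 5508 protein-coding genes, or 0.962%. All gene lists used here were chosen with earlier results of these data known, so their counts are descriptions and nothing is read from them about a pathway. The list holds variants of arms 2L and 2R alone, so genes of the pathway on other chromosomes fall outside it.

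After ptc came 4 missense changes with a quality of 150 or more. CG7102 had V80M (2L, position 7886585, quality 164). The translation factor eEF2, which moves the ribosome along the messenger RNA, had Y773N (2L, position 21678529, quality 161). In Mmp2, a matrix metalloproteinase that cuts extracellular matrix, A15T had a quality of 156 (2R, position 9682890) and lay 1.33% of the way into a gene interval of 72720 bp. CG30460 had S513C (2R, position 17068715, quality 153). These 5 variants with ptc included, 3 on 2R and 2 on 2L, were all missense changes, and each was the only variant of its gene in the list.

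Between 100 and 150 the list held 12 variants in 10 genes, of which 7 were insertions or deletions, 3 missense and 2 at splice sites. The missense changes were G118R in ds (140), V27L in CG16898 (109) and S543P in tbrd-2 (104). The insertions and the deletion lay in CG30122 (135 and 127), bib (129), cana (127), Nak (121) and Np (107 and 102). A splice acceptor of Clamp had a quality of 106 and a splice donor of Liprin-alpha one of 100. Below these, 25 variants scored from 50 to under 100 and another 25 under 50. The low band was crowded at a few values: 6 variants had a quality of 30.4, 5 had 27.4 and 5 had 26.4, the lowest score of the list.

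**Figure D1:**
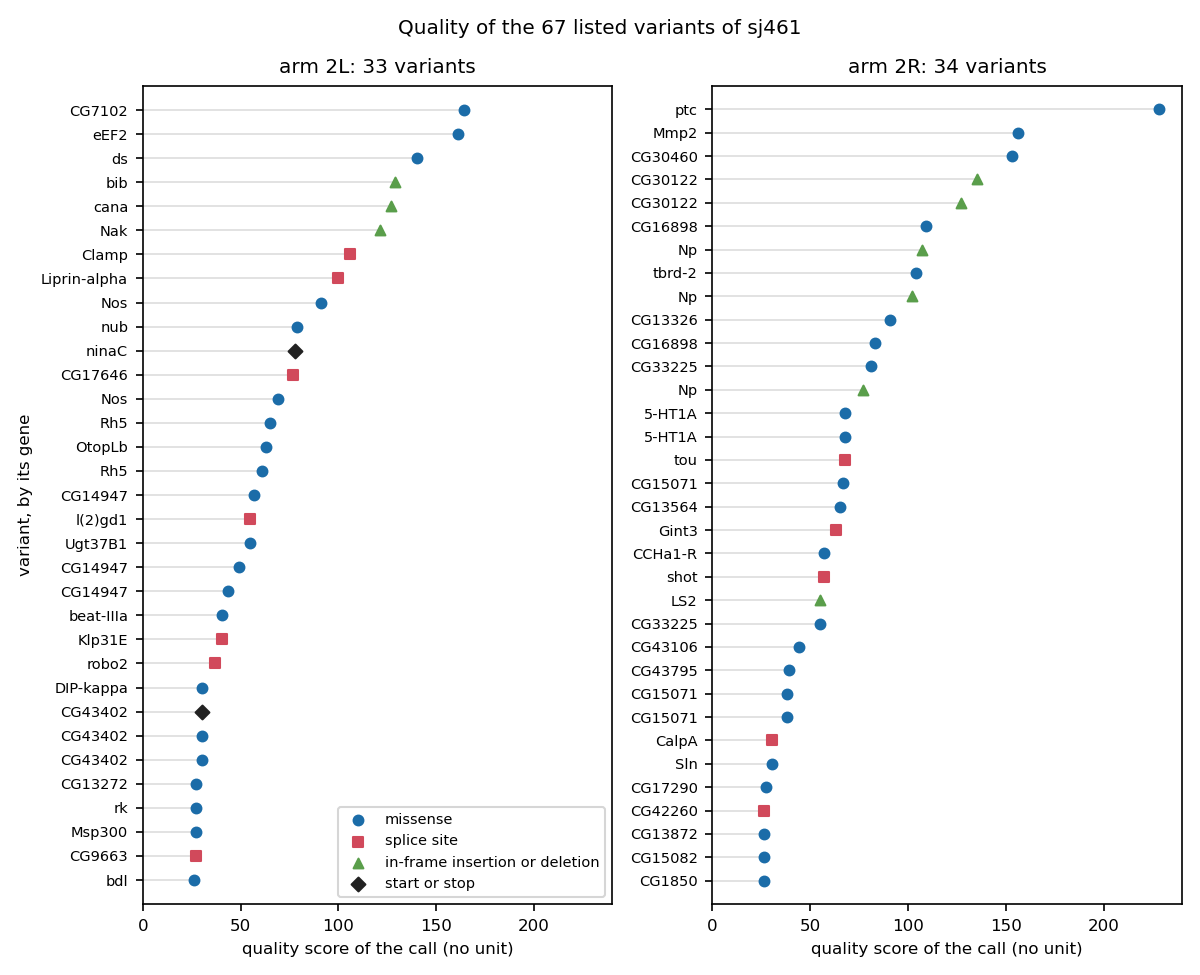
Quality score of each of the 67 variants of sj461, by gene and arm, in order of score; symbols give the class of change. The ptc point at 228 stands alone, the next scores on 2R are Mmp2 (156) and CG30460 (153), and the highest on 2L are CG7102 (164) and eEF2 (161).

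A role is given here for 32 of the 53 genes, which hold 37 of the 67 variants. The counts by role below cover these 32 genes only and are not totals for a gene family. Genes of muscle guidance and attachment come first. Of 19 genes of that list, 12 lie on chromosome 2 and sj461 listed 3 of them, each with a splice-site change, beside 0.962% of all protein-coding genes of the chromosome; as the list was chosen with results known, nothing is read from this. The receptor robo2, which reads the repellent Slit, was changed at an acceptor (2L, position 1394759, quality 36.7). The spectraplakin shot, which links actin to microtubules and is needed in tendon cells, was changed at a donor (2R, position 13874857, quality 57). The donor change in Liprin-alpha, a scaffold that binds the receptor phosphatase Lar at synapses, lay at 2L, position 6726719, and had the highest quality of the 3. By score Liprin-alpha stood in place 17, shot in place 36 and robo2 in place 51 of 67.

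Other adhesion proteins had missense changes. The large cadherin ds, a partner of Fat in planar polarity, had G118R (2L, position 707415). Members of the immunoglobulin superfamily had low scores: A40V in beat-IIIa (40.4), N420H in DIP-kappa (2L, position 13679115, quality 30.4) and A15E in bdl (26.4). DIP-kappa belongs to the partners of the Dpr surface proteins, and bdl acts in axon targeting. All 6 variants in genes grouped here under adhesion and guidance lay on 2L, with a median quality of 38.6 and a range from 26.4 to 140. The gene shot, on 2R, is counted with the cytoskeleton instead. Of the whole list, 33 of 67 variants lay on 2L, so nothing is read from this placement.

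In the genes of the cytoskeleton and of motors each of 5 genes had 1 variant. Msp300, a giant nesprin that holds muscle nuclei in place, had K8249I (2L, position 5182087, quality 27.4). It was the 1 gene listed of the 5 on chromosome 2 (Msp300, koi, Khc, Unc-89 and Mhc) among the muscle nuclear position and cytoskeleton genes. M1R removed the start codon of ninaC, which encodes a photoreceptor myosin (2L, position 7378402, quality 78). The kinesin gene Klp31E had an acceptor change (2L, position 10416503, quality 40.4). The deletion in cana, a kinesin related to the mitotic motor CENP-E, had the highest quality of this group at 127. None of the 16 symbols in the set of myoblast fusion genes was listed, 6 of which lie on chromosome 2 (sns, hbs, blow, Vrp1, SCAR and Arf51F). With 0.962% of all genes of the chromosome listed, a count of 0 among 6 genes is near that background.

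Of 10 matrix and protease genes, 6 lie on chromosome 2 and 2 were listed, Mmp2 and Np (0.962% over all genes of the chromosome); this list too was chosen with results known. The serine protease gene Np had an insertion of 3 bases written at positions 8995689 (quality 77), 8995698 (107) and 8995701 (102) of 2R. Each of these entries adds 1 serine to the same run of serines at residue 733. The entry at 8995689 is annotated as protein altering and the others as in-frame insertions. They count as 1 change where equivalent entries are merged. Merging went by gene, length change and distance (within 30 bp), and the sequences were not compared. A further protease gene, CalpA, a calpain activated by calcium, had an acceptor change (2R, position 19427199, quality 30.4).

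In genes of chromatin and transcription the scores ran from 68 to 106. Clamp, a zinc finger protein that helps to target dosage compensation to the X chromosome, was changed at an acceptor (2L, position 22166988). The chromatin remodelling gene tou was changed at a donor (2R, position 11587536, quality 68). The POU factor nub had E158A (2L, position 12594470, quality 79). The bromodomain gene tbrd-2, known from the testis, had S543P (2R, position 19261745). LS2, a testis relative of the splicing factor U2AF, gained 2 residues, an arginine and a serine, at residue 22 (2R, position 23211432, quality 55).

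Genes tied to Notch signalling and endocytosis held 3 variants, all on 2L, beside 33 of 67 over the whole list. Those in bib, a neurogenic membrane protein of the aquaporin family, and in Nak, a kinase that binds Numb, were the insertions printed above. The gene l(2)gd1, which acts in the endosomal sorting of Notch, had an acceptor change (2L, position 11109355, quality 55).

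Receptors coupled to G proteins held 6 missense changes in 4 genes, with scores from 27.4 to 68. The serotonin receptor gene 5-HT1A had E571V and M588T (2R, positions 19118300 and 19118351, both 68). The rhodopsin gene Rh5 had L17S and A39S (2L, positions 12008498 and 12008563, 65 and 61). The peptide receptor gene CCHa1-R had N480K (57), and rk, the receptor of the hormone bursicon, had E207D (27.4). Among enzymes and transporters, the nitric oxide synthase gene Nos had G77E and T48A (2L, positions 10831698 and 10831786, 91 and 69). OtopLb, a relative of the otopetrin proton channels, had Y142F (63), the glycosyltransferase gene Ugt37B1 had E77D (55) and Sln, a transporter of monocarboxylates, had R635Q (30.4).

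The remaining 21 genes, for which no role is given here, held 30 variants with a median quality of 46.9. Besides CG7102, CG30460, CG30122 and CG16898 they included splice-site changes in CG17646 (acceptor, 2L, position 1748773, quality 77), Gint3 (acceptor, 2R, position 18658857, quality 63), CG9663 (acceptor, 2L, position 3296487, quality 27.4) and CG42260 (donor, 2R, position 22747134, quality 26.4). Single missense changes were L455S in CG13326 (91), S11P in CG13564 (65), Q184H in CG43106 (44.4), G1105S in CG43795 (39.4), V308M in CG13272 and H93R in CG17290 (both 27.4). At the lowest score of 26.4 stood L438V in CG13872, K245Q in CG15082 (2R, position 18832957) and D649N in CG1850. Of these 30 variants, 20 lay on 2R, beside 34 of 67 over the whole list.

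Most genes had 1 variant, but 6 had 2 and 4 had 3, with equivalent entries of an insertion counted separately. The genes with 3 were Np, CG14947, CG15071 and CG43402. CG14947 had H8Q (2L, position 12076846, quality 49.4), S30C (12076910, 43.4) and N131K (12077215, 57). CG15071, with a gene interval of 761 bp, had L40P (2R, position 18696752, quality 67), G107A (18696953) and L119I (18696988), both 38.4. CG43402 had D70N (2L, position 1442994), Y90F (1443055) and the stop gained Y90* (1443056), all at 30.4. Y90F and Y90* change neighbouring bases of codon 90: the reference codon reads tac, the single changes give tTc and taG, and both on 1 molecule would read TTG, a leucine codon. Whether both bases lie on the same molecule was not tested.
The genes with 2 variants were 5-HT1A, Rh5, Nos, CG16898, CG33225 and CG30122. CG33225 had A103T (2R, position 21590871, quality 55) and D113N (21590901, 81), which are 10 residues apart. CG16898 had V27L (20004895) and N189K (20004407, 83), which are 162 residues and 488 bp apart. Both entries of CG30122, at positions 18633783 and 18633784 of 2R, add a glycine and a serine at residue 1017. They too count as 1 change where equivalent entries are merged.

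Variants of sj461 therefore came in tight groups or far apart. Within 100 bp of another variant lay 20 of the 67, in 9 groups, each inside 1 gene. Within 1000 bp lay 24. The groups of Np and CG30122 consist of insertions counted here as equivalent. With equivalent insertions counted once, 15 of 64 variants lay within 100 bp of another. No variant had its nearest neighbour between 488 and 18942 bp away. The median distance between neighbours on an arm was 334593 bp (95% interval from order statistics 165494 to 508183). On 2L the list ran over 21.5 Mb from ds to Clamp, with the largest gap, of 2.82 Mb, between rk and CG13272. On 2R it ran over 17.9 Mb from CG1850 to CG43106, with the largest gap, of 3.19 Mb, between shot and CG30460.

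**Figure D2:**
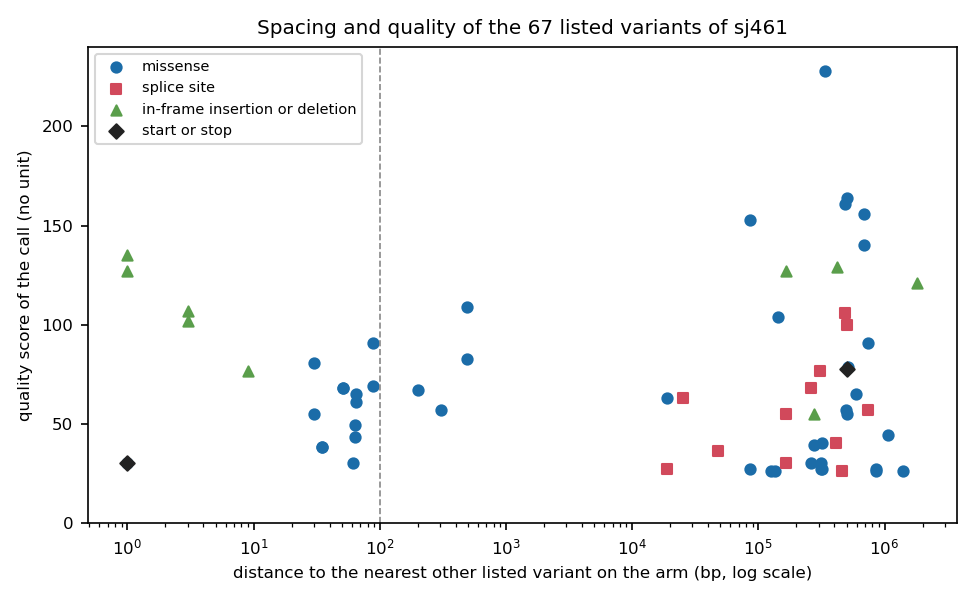
Distance from each of the 67 variants to the nearest other listed variant on its arm (bp, log scale) against its quality score; the dashed line marks 100 bp. The 20 variants left of the line have scores of at most 135, and the points to the right of 18942 bp include ptc (228) and the other 4 variants of 150 or more.

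The densest stretch lay on 2R. Over 0.793 Mb, from position 18633783 to 19427199, 11 variants fell in 7 genes, CG30122, Gint3, CG15071, CG15082, 5-HT1A, tbrd-2 and CalpA. With a window of 1.5 Mb it took in CG13872 and CG16898 as well, for 14 variants in 9 genes over 1.37 Mb. The 2 equivalent entries of CG30122 are counted separately in both. The densest 1 Mb window of sj440 held 5 genes, at another place on 2R. That of sj266, a shorter list, held 3 genes (Topors, CG10737 and Spt5) and overlaps the stretch of sj461. No test of these differences was made. How many genes lie in each stretch was not counted, so gene density is not taken into account. The stretch holds neither ptc nor another variant of 150 or more, and its highest scores are those of CG30122.

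The 12 splice-site changes, 8 at acceptors and 4 at donors, had a median quality of 56 and a range from 26.4 to 106. The bases concerned lie in introns, which spliced RNA lacks, and whether splicing differed was not tested. The 44 missense changes had a median of 57 and the widest range, from 26.4 to 228. Their residue numbers ran from 8 in CG14947 to 8249 in Msp300, with a median of 125, and 11 of the 44 fell in the first 50 residues, among them A15T in Mmp2 and A15E in bdl. How far along its protein each residue lies was not analysed here.

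Residue exchanges were graded with the BLOSUM62 matrix, in which a negative score marks an exchange that is rare between related proteins. Of the 44 missense changes, 16 scored below 0, 12 at 0 and 16 above 0, with a median of 0. The lowest score, -3, belonged to K8249I in Msp300 and L40P in CG15071. Changes of -2 included Y773N in eEF2, G118R in ds, G77E in Nos, L455S in CG13326, E571V in 5-HT1A and L17S in Rh5. C313S in ptc scored -1, A15T in Mmp2 scored 0 and V80M in CG7102 scored 1. Among the 25 missense changes with a quality of 50 or more, 13 scored below 0, against 3 of the 19 with a lower quality; these counts are a description, since variants of 1 chromosome are not independent.

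**Figure D3:**
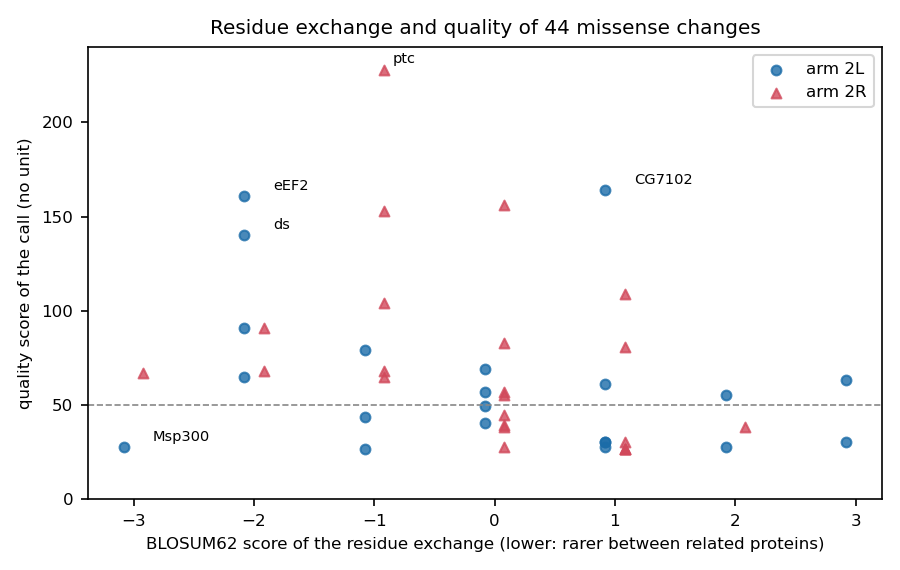
BLOSUM62 score of the residue exchange against the quality score for the 44 missense changes, by arm (points of the arms are drawn slightly to either side of the whole-number score); the dashed line marks a quality of 50. Of the 25 points above the line 13 have a score below 0, and of the 19 below it 3 do, Msp300 at -3 among them.

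The lists of the 3 lines were compared by their make-up. Missense changes such as those in ptc, eEF2 and Mmp2 made up 65.7% of its 67 variants (44; exact 95% interval 53.1 to 76.8), against 34.2% of 38 in sj266 (13; 19.6 to 51.4), a difference of 31.5 points. Fisher's exact test, two-sided and Benjamini-Hochberg adjusted over 6 comparisons, gave p = 0.0139. The test compares 2 lists and not replicates of the lines, and it takes variants as independent, which those of 1 chromosome are not, so it does not show that the lines differ. Among variants with a quality of 50 or more the difference was 21.1 points (adjusted Fisher's exact p = 0.268), and without splice-site variants it was 23.5 points (0.148). Against sj440, with 55.9% of 68 (38; 43.3 to 67.9), the difference of 9.79 points did not pass (adjusted Fisher's exact p = 0.437). It was 23.4 points with a quality of 50 or more (25 of 42 against 13 of 36, adjusted Fisher's exact p = 0.134) and 0.833 points without splice-site variants (1).

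Tightly grouped variants, such as those of CG43402, Rh5 and Nos, were 29.9% of the sj461 list (20 of 67; exact 95% interval 19.3 to 42.3), 10.5% of that of sj266 (4 of 38; 2.94 to 24.8) and 25% of that of sj440 (17 of 68; 15.3 to 37). Neither comparison passed (adjusted Fisher's exact p = 0.088 and 0.662). These tests too take variants as independent. A grouped variant always has a grouped neighbour, so the members of 1 group are not separate. Changes of A:T to T:A pairs, as in ptc, eEF2, CG30460 and Msp300, were 14 of 58 single-base changes in sj461, 2 of 28 in sj266 and 12 of 59 in sj440. The differences of 17 and 3.8 points did not pass either (adjusted Fisher's exact p = 0.154 and 0.662).

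**Figure D4:**
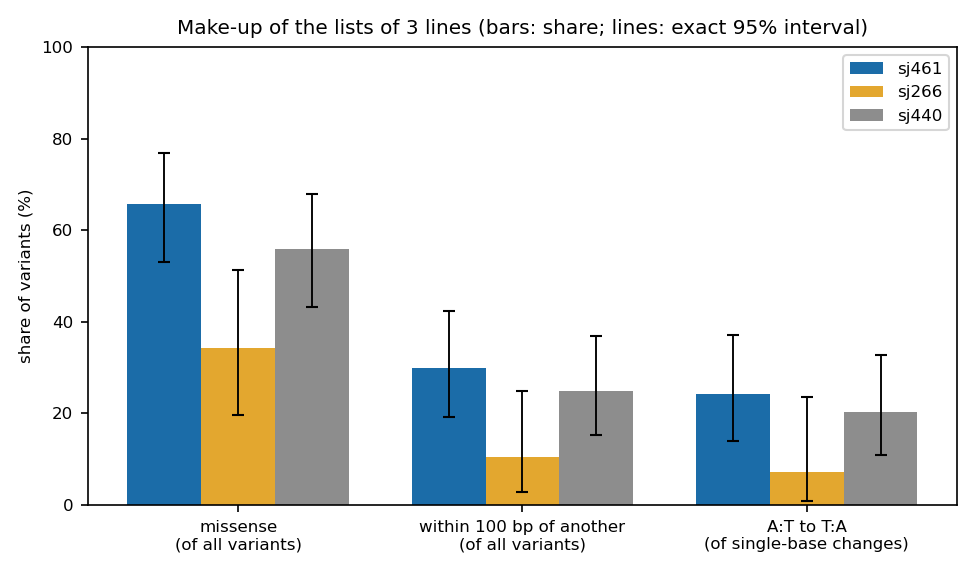
Share (%) of missense changes, of variants within 100 bp of another and of A:T to T:A changes in the lists of sj461, sj266 and sj440; lines are exact 95% intervals, for counting error alone. The missense share of sj461 (65.7%) lies above that of sj266 (34.2%), and the intervals of the other pairs overlap.

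The sj461 list had no variant in common with either list, but 6 of its genes recurred with other changes. Of the 55 genes of the sj440 list 5 were among these, and of the 35 of sj266 1 was. Over chromosome 2, sj461 listed 0.962% of all protein-coding genes. Whether variants shared between lines had been removed from the lists is unknown, so nothing is read from these counts. In tou, sj266 had an in-frame insertion of quality 54 placed 1344 bp from the donor change of sj461. In ds, sj440 had A2539T (quality 228) 63400 bp away from G118R. In Np, sj440 had an insertion of quality 173 at a site 776 bp away. Msp300 had E94D, H95N and T3021S in sj440, the nearest 15685 bp from K8249I. CG15082 had F84Y and DIP-kappa H592Y in sj440, both of quality 43.4, at 590 and 516 bp from the changes of sj461.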

How the data were processed

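The authors deposited 1 variant list per line, made from RNA of all its samples, with a quality score for each call as the caller gave it, per the file headers. All entries had passed the authors' filter. The submitters' processing notes name the build BDGP6, STAR 2.5.4b and cutadapt 2.4; no label or header names the caller or the annotation program. From these lists, distinct variants were counted, and the distance between neighbours, the class of change and BLOSUM62 scores were computed with Python 3.11.15, pandas 2.3.3, scipy 1.17.1 and Biopython 1.88. Residue 1 is the first of the annotated transcript's protein. All 53 gene symbols matched the RefSeq table of Release 6 plus ISO1 MT, and all 67 variants lay inside their gene's interval there. In the gene lists, 2 symbols (Klp and sarc) matched no gene of that table.

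Shares were compared with Fisher's exact tests (threshold 0.05), which were first tested on simulated data. The simulated variants were independent, so this check does not cover linked or repeated variants. Besides no difference, the only difference simulated was larger than any found here, and no adjustment was made. The check therefore does not cover the detection of smaller differences. Named with full values were the 15 variants of highest quality, all start, stop and splice-site changes, genes with 2 or more variants, genes also listed in the other lines and members of the gene lists. The variants, gene lists and tests were chosen with earlier results of these data known, and the groups by role were assigned with the values in view. Depth is unknown, and intervals cover counting error only. Alternatives were a quality minimum of 50, merging of equivalent insertions (within 30 bp), 1 variant per group, other distances and the removal of splice-site variants.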

Additional observations from a re-analysis of the deposited data

How the results depend on the processing

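The excess of missense changes over sj266 was 33.6 points with equivalent insertions counted once (adjusted Fisher's exact p = 0.00982) and 30 points with 1 variant per group (0.0349). It no longer passed with a quality of 50 or more (21.1 points, 25 of 42 against 10 of 26) or without splice-site variants (23.5 points, 44 of 55 against 13 of 23). Both settings had fewer variants and a smaller difference. Under every setting the tests compare 2 lists and take linked variants as independent, so none shows that the lines differ in missense share. Splice-site changes were 17.9% of the sj461 list and 39.5% of that of sj266, and the missense share of a list depends on its other classes. The excess of grouped variants over sj266 passed with a distance of 1000 bp (25.3 points, adjusted Fisher's exact p = 0.0166). Members of a group are counted singly there and are not independent, so this result does not show that the lines differ. Reversals appeared against sj440: grouped variants within 10 bp differed by -10.1 points and A:T to T:A changes with a quality of 50 or more by -7.36 points, neither past the threshold; the cause was not tested. With a quality of 50 or more, 42 variants remained, with a median quality of 80 and a median spacing of 548066 bp. The other 26 alternative values kept direction and call, stayed within the main median's interval or, for counts, within 1.5 times. The planned relative protein position was not run, as protein lengths were not used here. No paired analysis was possible because each line has 1 list over its samples, and no replicate could be left out. Read depth, which would limit each call, is unknown.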

Other observations

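On the strand that carries the sequence of the RNA, the 58 single-base changes of sj461 held 13 G to A and 1 C to T, 9 A to T and 5 T to A, 7 T to C and 2 A to G, and 6 G to T and 2 C to A. The other complementary types were even or nearly so, with 4 G to C and 4 C to G, and 3 A to C and 2 T to G. The G to A changes included V80M in CG7102, A15T in Mmp2, G118R in ds and G77E in Nos, and the C to T change was A40V in beat-IIIa. The T to C changes included S543P in tbrd-2, L40P in CG15071 and L17S in Rh5. These counts include the 12 splice-site changes, which fall only on the fixed bases of acceptors and donors. No test of this balance was made here, and whether it holds without the splice-site changes was not tested.

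Of the 4 member pairs whose gene intervals lay less than 50000 bp apart, robo2 and CG43402 were separated by 22174 bp, OtopLb and CG9663 by 14392 bp, CG30122 and Gint3 by 19148 bp, and Gint3 and CG15071 by 35037 bp. No intervals of listed genes overlapped.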
